A study of Homo sapiens with 8 samples.

Results

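The levels of 8 genes of TNF signalling and of its output through the transcription factor NF-kB were followed in SupB15, a Philadelphia chromosome-positive human precursor B-cell leukemia line. The genes were TNF, LTA, LTB, CD70, CD40, TRAF1, BIRC3 and ICAM1. They were picked by symbol from the authors' tables, and each symbol belonged to 1 gene identifier, so that 8 of the 16608 genes with counts in all libraries were members. They were named with earlier results of these data in view, among them higher TNF and CD40 in 1035 against DMSO, and that comparison is therefore given below as a description with no p-value. Total RNA of 8 libraries was sequenced, 2 for each of 4 treatments of the same line. Control cells had DMSO, the solvent, during 46 h. A group with 1035 alone had 2 µM of it over the same 46 h. A group with doxorubicin alone had 0.1 µM during 10 h. In the combination, 36 h with 2 µM of 1035 came before 10 h with 0.1 µM of doxorubicin. The series title speaks of a histone deacetylase inhibitor, a drug that keeps acetyl marks on histones, and 1035 is the only agent named beside doxorubicin, a chemotherapy drug that damages DNA through topoisomerase II. The labelled time was 10 h in the doxorubicin group and 46 h in all in the other groups, so drug and labelled time cannot be told apart in doxorubicin against DMSO or in the combination against doxorubicin. The labels do not say whether 1035 stayed on the cells during the last 10 h of the combination. They give 36 h of 1035 in the combination and 46 h in 1035 alone. Doxorubicin and the time with 1035 therefore cannot be told apart by the labels in the combination against 1035. The interaction is built from these comparisons and shares their limits. All libraries come from 1 cell line, and p-values measure the spread between 2 samples of a treatment, which the design text calls independent.

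As background, ligands of the TNF family are trimers on the cell surface or shed from it, and they cluster receptors that carry no enzyme of their own. The receptors recruit TRAF adaptors and the ubiquitin ligases cIAP1 (BIRC2) and cIAP2 (BIRC3), which lead to release of NF-kB from its inhibitors. The classical arm acts through NFKB1 with RELA or REL, and the alternative arm, used by CD40 and the lymphotoxin receptor, through NFKB2 with RELB. Many genes of the pathway, including TNF, LTB, TRAF1, BIRC3 and ICAM1, are themselves NF-kB targets. In B cells CD40 receives help from T cells and CD70 is an activation antigen that binds CD27.

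Counted reads per library ran from 11760542 to 18144670. The 12 markers of the B lineage all had counts, and their summed level was 3204 to 3371 CPM (the usual scaling of a gene's reads to library size, here with TMM normalisation) in the 4 libraries given 1035 and 4147 to 4447 CPM in the 4 others. The list went both ways with 1035: in the combination against doxorubicin 7 markers were lower, among them IGLL1 (798 ± 45.9 CPM in doxorubicin and 222 ± 1.47 CPM in the combination, mean ± SD, n = 2) and DNTT (923 ± 60.8 and 527 ± 19.6 CPM), and 4 were higher (CD79A, CD79B, CD22 and MS4A1). Of 8 myeloid markers, 3 (LYZ, CSF1R and CD68) had counts, with a sum of 17.2 to 20.5 CPM without 1035 and 23.3 to 26.7 CPM with it. They did not move together: in the combination against doxorubicin LYZ was lower (-0.84 on the log2 scale) and CSF1R (0.66) and CD68 (0.51) were higher. CD14, FCGR3A, S100A8, S100A9 and FCN1 had no row in the tables used here. Of 8 markers of T and NK cells only NKG7 had counts (9.64 to 11.8 CPM), of 7 stromal and endothelial markers COL1A1 and VWF had counts (sum 0.191 to 1.62 CPM without 1035 and 1.37 to 3.66 CPM with it), and of 4 erythroid markers none had. The part of other cells in the levels below was not tested. In such bulk RNA, a change in the number of expressing cells and a change in RNA per cell cannot be told apart.

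Promoter windows of 250 bases before the transcription start were read from the RefSeq table (GRCh38.p14), which held 6 of the 8 members. CD40 and CD70 were not in it. Both strands of the windows were searched for GGGRNNYYCC, a consensus of the NF-kB site. R is A or G, Y is C or T and N is any base. The consensus was held by 9.95% of 34788 windows of the same length in that table. BIRC3 had 2 matches, at 199 and 135 bases before the start, LTB had 1 match, at 86 bases before the first of its 2 neighbouring starts, and LTA had 2 overlapping matches at the second of its 2 starts (104 and 103 bases before it). The windows of TNF, ICAM1 and the 3 starts of TRAF1 held no match. Sites that depart from this consensus were not searched for, so a window without a match may still hold an NF-kB site. BIRC3 and LTB are shown because they had the largest rises after doxorubicin in cells given 1035, and TNF because it gives the family its name and lies next to LTB. Each is printed 5′ to 3′ on the gene's own strand, and capitals mark the consensus matches.
BIRC3 promoter, chr11:102317234-102317483, plus strand: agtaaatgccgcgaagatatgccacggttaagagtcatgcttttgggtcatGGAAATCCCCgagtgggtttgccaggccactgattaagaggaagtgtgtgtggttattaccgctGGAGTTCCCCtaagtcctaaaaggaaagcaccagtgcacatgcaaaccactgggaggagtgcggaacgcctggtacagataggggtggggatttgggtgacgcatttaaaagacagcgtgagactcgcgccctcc
LTB promoter, chr6:31582426-31582675, minus strand: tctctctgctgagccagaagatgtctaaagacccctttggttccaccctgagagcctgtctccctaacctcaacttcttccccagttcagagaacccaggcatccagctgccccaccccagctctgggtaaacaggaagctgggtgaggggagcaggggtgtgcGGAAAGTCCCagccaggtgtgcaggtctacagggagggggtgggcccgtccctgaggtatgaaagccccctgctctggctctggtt
TNF promoter, chr6:31575315-31575564, plus strand: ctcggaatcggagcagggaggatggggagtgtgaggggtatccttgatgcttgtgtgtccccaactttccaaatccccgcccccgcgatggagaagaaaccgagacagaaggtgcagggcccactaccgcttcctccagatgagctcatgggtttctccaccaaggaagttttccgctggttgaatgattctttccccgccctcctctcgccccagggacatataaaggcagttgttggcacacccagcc
The matched letters were GGAAATCCCC and GGAGTTCCCC in BIRC3 and GGAAAGTCCC in LTB. A match describes these letters only, and factor binding was not measured.

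TNF, LTA, LTB, CD40, TRAF1 and ICAM1 were higher in each of the 4 libraries given 1035 than in each of the 4 without it. CD70 and BIRC3 were higher in each of the 4 libraries given doxorubicin than in each of the 4 without it, and BIRC3 was highest in the combination. In 1035 against DMSO, 7 of 8 genes were higher and none lower at a false discovery rate (FDR) of 0.05 in edgeR's quasi-likelihood test over all 16320 tested genes, where 24.2% of all genes were called higher, 24.8% lower and 49.0% in either direction. Since the genes were named with this comparison known, nothing is read from that count. In the combination against doxorubicin, made of 4 other libraries, 7 of 8 were again higher and none lower, against 21.8% of all genes called higher, 22.0% lower and 43.8% in either direction. Their median log2 fold change there was 1.53 against 0.00 for all tested genes. The same drug is compared there, so the choice of genes can carry over although the libraries differ. That count and median are therefore a description too. So are the adjusted p-values of single members given below for that comparison, including those of TNF and CD40.

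**Figure D1:**
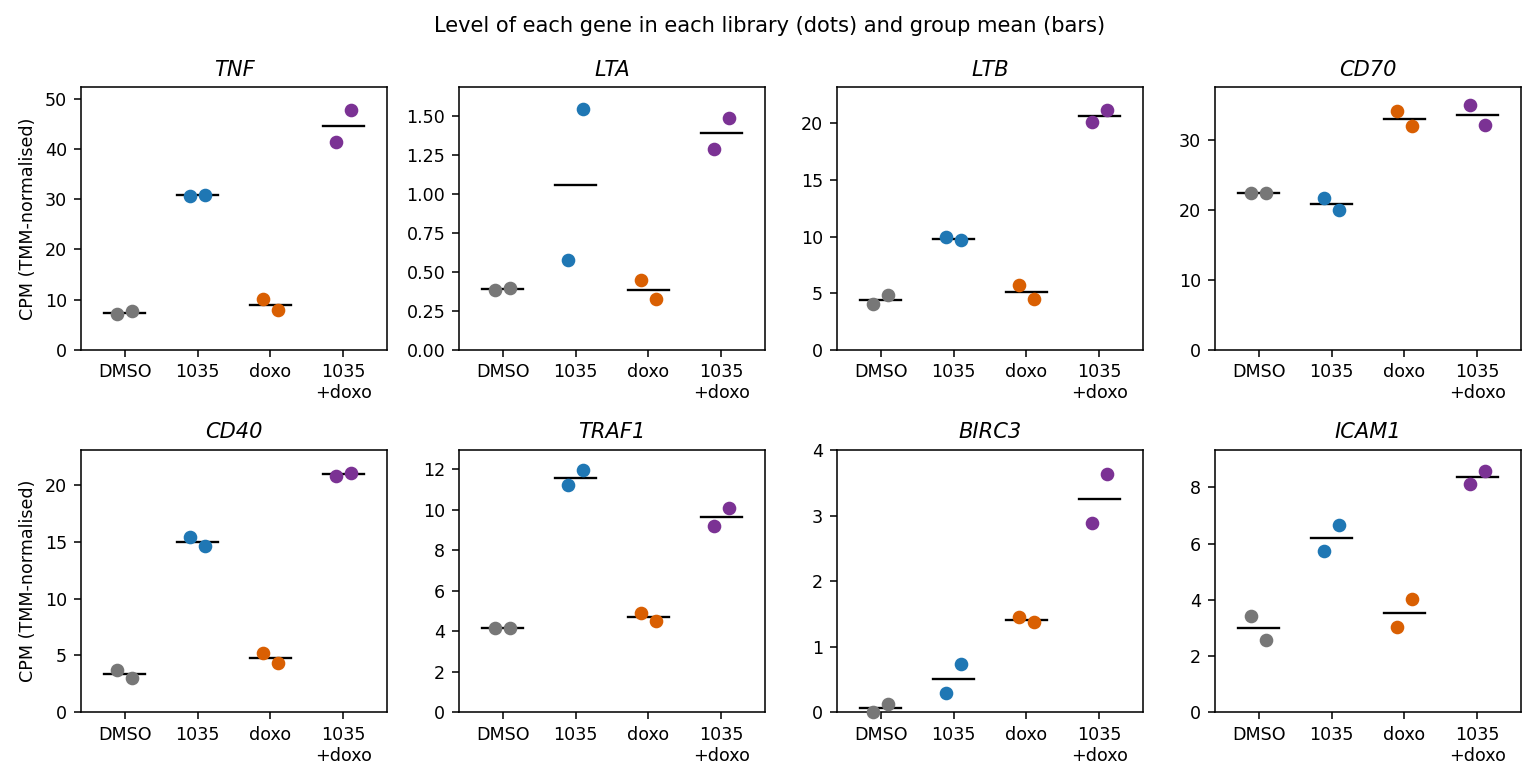
Level of each of the 8 genes in CPM (vertical axis, linear from 0) by treatment (horizontal axis). Dots are the 2 libraries of a treatment and black bars their mean. TNF lay at 30.7 CPM or more in all 4 libraries given 1035 and at 10.1 CPM or less in the others, whereas CD70 separated by doxorubicin.

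TNF encodes a cytokine of inflammation that binds TNFRSF1A and TNFRSF1B. Its level was 7.08 and 7.74 CPM in DMSO, 30.7 and 31.0 CPM in 1035, 10.1 and 7.84 CPM in doxorubicin, and 41.5 and 47.8 CPM in the combination. The 4 libraries with 1035 were all above the 4 without, and both combination libraries were above both of 1035 alone. The log2 fold change was 2.06 ± 0.12 (SE here and below) in 1035 against DMSO. It was 2.29 ± 0.11 in the combination against doxorubicin (adjusted p = 8.6e-20, edgeR), a 4.89-fold rise. Doxorubicin after 1035 raised TNF by 0.53 ± 0.09 over 1035 alone (adjusted p = 6.8e-04, edgeR), but without library 2 of the combination the value was 0.43 and the adjusted p was 0.290. Doxorubicin against DMSO gave 0.30 ± 0.14 (adjusted p = 0.357, edgeR), with groups that did not overlap.

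LTA, or lymphotoxin alpha, lies next to TNF and is secreted as a trimer or held at the surface by LTB. It had few reads: 6 and 6 counts in DMSO, 8 and 19 in 1035, 8 and 4 in doxorubicin, and 17 and 18 in the combination. Only libraries given 1035 carried LTA past the filter on low counts. The 2 libraries of 1035 differed most, at 0.576 and 1.54 CPM, and the higher of them lay above both combination libraries (1.29 and 1.49 CPM). The log2 fold change in 1035 against DMSO was 1.39 ± 0.56, or 0.55 without library 2 of 1035. In the combination against doxorubicin LTA rose by 1.79 ± 0.54 (adjusted p = 0.00601, edgeR), and this call ended with DESeq2 (adjusted p = 0.0532) and without library 2 of the combination (adjusted p = 0.0529). Doxorubicin gave 0.02 ± 0.66 against DMSO and 0.41 ± 0.46 after 1035, neither past the test.

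LTB, lymphotoxin beta, anchors LTA in the membrane and signals through the lymphotoxin receptor LTBR. It stood at 4.02 and 4.83 CPM in DMSO, 9.93 and 9.67 CPM in 1035, 5.71 and 4.44 CPM in doxorubicin, and 20.1 and 21.2 CPM in the combination. The combination libraries were above all others, and DMSO and doxorubicin overlapped. The log2 fold change was 1.15 ± 0.16 in 1035 against DMSO and 2.00 ± 0.14 in the combination against doxorubicin (adjusted p = 3.3e-15, edgeR). Doxorubicin after 1035 raised LTB 2.11-fold over 1035 alone (1.08 ± 0.13, adjusted p = 2.6e-07, edgeR), the rise with the smallest p of the 8 genes in that comparison. Doxorubicin against DMSO gave 0.23 ± 0.18 (adjusted p = 0.630, edgeR). The difference between these doxorubicin effects, tested as an interaction, was 0.85 ± 0.22 with an unadjusted p of 4.2e-04 and an adjusted p of 0.569 over all genes. It therefore did not pass, except without library 1 of doxorubicin (1.07, adjusted p = 0.0171), and its adjusted p ranged from 0.0171 to 1.00 over the alternatives. LTBR, the receptor, stood at 3.80 ± 0.0531, 4.69 ± 0.726, 3.85 ± 0.380 and 3.79 ± 0.336 CPM (mean ± SD, n = 2) in DMSO, 1035, doxorubicin and the combination.

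CD70, the ligand of CD27, was the member with no rise after 1035. It had 22.4 and 22.4 CPM in DMSO, 21.7 and 20.0 CPM in 1035, 34.2 and 32.0 CPM in doxorubicin, and 35.0 and 32.2 CPM in the combination. The 4 libraries given doxorubicin lay above the 4 others, and the doxorubicin and combination groups overlapped. Doxorubicin raised CD70 by 0.57 ± 0.09 against DMSO (1.48-fold, adjusted p = 1.9e-04, edgeR) and by 0.69 ± 0.10 after 1035 (1.61-fold, adjusted p = 9.3e-06, edgeR). Both calls held with each single library left out. The effect of 1035 was -0.10 ± 0.10 without doxorubicin and 0.02 ± 0.09 with it (adjusted p = 0.879, edgeR). CD27, the receptor of CD70, had 1.29 ± 0.24 in 1035 against DMSO and rose by 1.65 ± 0.27 in the combination against doxorubicin (adjusted p = 3.0e-06, edgeR).

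CD40, the receptor of the group, had levels of 3.76 and 3.04 CPM in DMSO, 15.4 and 14.6 CPM in 1035, 5.21 and 4.36 CPM in doxorubicin, and 20.7 and 21.1 CPM in the combination. None of the 4 treatments overlapped another, and the order was DMSO, doxorubicin, 1035, combination. The log2 fold change was 2.14 ± 0.15 in 1035 against DMSO and 2.11 ± 0.14 in the combination against doxorubicin (4.31-fold, adjusted p = 4.5e-16, edgeR). After 1035, doxorubicin gave 0.48 ± 0.11 (adjusted p = 0.0382, edgeR). That call ended without library 1 (adjusted p = 0.114) or library 2 (0.438) of 1035, without library 1 (0.260) or library 2 (0.631) of the combination, with DESeq2 (0.951), and without robust estimation of the spread (0.0512). Against DMSO, doxorubicin gave 0.51 ± 0.19 (adjusted p = 0.193, edgeR).

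TRAF1, an adaptor that joins TRAF2 at the tails of receptors such as CD40, had 4.14 and 4.17 CPM in DMSO, 11.2 and 11.9 CPM in 1035, 4.93 and 4.52 CPM in doxorubicin, and 9.20 and 10.1 CPM in the combination. It was the only member whose combination libraries were both below both libraries of 1035 alone. The log2 fold change was 1.48 ± 0.16 in 1035 against DMSO and 1.02 ± 0.16 in the combination against doxorubicin (adjusted p = 1.6e-06, edgeR). Doxorubicin after 1035 gave -0.27 ± 0.14 (adjusted p = 0.780, edgeR), and doxorubicin against DMSO 0.19 ± 0.18 (adjusted p = 0.703, edgeR). The interaction was -0.46 ± 0.23 (adjusted p = 0.952, edgeR).

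BIRC3 encodes cIAP2, a ubiquitin ligase that binds TRAF2 and restrains death signalling at TNF receptors. It had 0 and 2 counts in DMSO, 4 and 9 in 1035, 26 and 17 in doxorubicin, and 38 and 44 in the combination. These counts are 0 and 0.132, 0.288 and 0.731, 1.46 and 1.37, and 2.89 and 3.64 CPM, and the 4 treatments did not overlap. The count of 0 allows up to 3 reads in that library. Only libraries given doxorubicin carried BIRC3 past the filter on low counts. The ratio of summed counts per read depth was 21.9 for doxorubicin over DMSO (exact 95% interval 5.71 to 187, counting error only). It was 7.64 for 1035 over DMSO (1.73 to 69.8), where the interval describes counting error and no test is read from it. For the combination it was 6.54 over 1035 (3.62 to 12.8) and 2.28 over doxorubicin (1.56 to 3.38). The rise passed in doxorubicin against DMSO (adjusted p = 2.4e-04, edgeR), in the combination against 1035 (1.3e-04) and in the combination against doxorubicin (0.00367). Without library 2 of the combination the adjusted p of the latter pair was 0.0514 and 0.0924, and DESeq2 gave 0.0783 for the combination against doxorubicin. The fitted interaction was -1.59 ± 0.99 (adjusted p = 0.952, edgeR). BIRC2, which encodes the sister ligase cIAP1, stood at 56.2 ± 4.55, 60.1 ± 1.22, 53.0 ± 5.52 and 63.7 ± 2.17 CPM (mean ± SD, n = 2) in DMSO, 1035, doxorubicin and the combination.

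ICAM1, an adhesion protein that binds the integrin LFA-1 on other leukocytes, had 3.44 and 2.58 CPM in DMSO, 5.76 and 6.66 CPM in 1035, 3.02 and 4.04 CPM in doxorubicin, and 8.13 and 8.59 CPM in the combination. The libraries with 1035 were all above those without, and DMSO and doxorubicin overlapped. The log2 fold change was 1.03 ± 0.21 in 1035 against DMSO and 1.27 ± 0.19 in the combination against doxorubicin (2.41-fold, adjusted p = 6.6e-07, edgeR). Doxorubicin gave 0.20 ± 0.22 against DMSO (adjusted p = 0.763, edgeR) and 0.43 ± 0.18 after 1035 (adjusted p = 0.571, edgeR). ITGB2 and ITGAL, the chains of LFA-1, rose in the combination against doxorubicin by 1.33 ± 0.08 and 0.29 ± 0.09, the latter with an adjusted p of 0.0526 without library 2 of doxorubicin, and ICAM2 by 0.61 ± 0.10. Of 7 such partners and relatives of ICAM1 that were tested, 3 were higher and 4 not past the test, where 21.8% of all genes were higher.

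**Figure D2:**
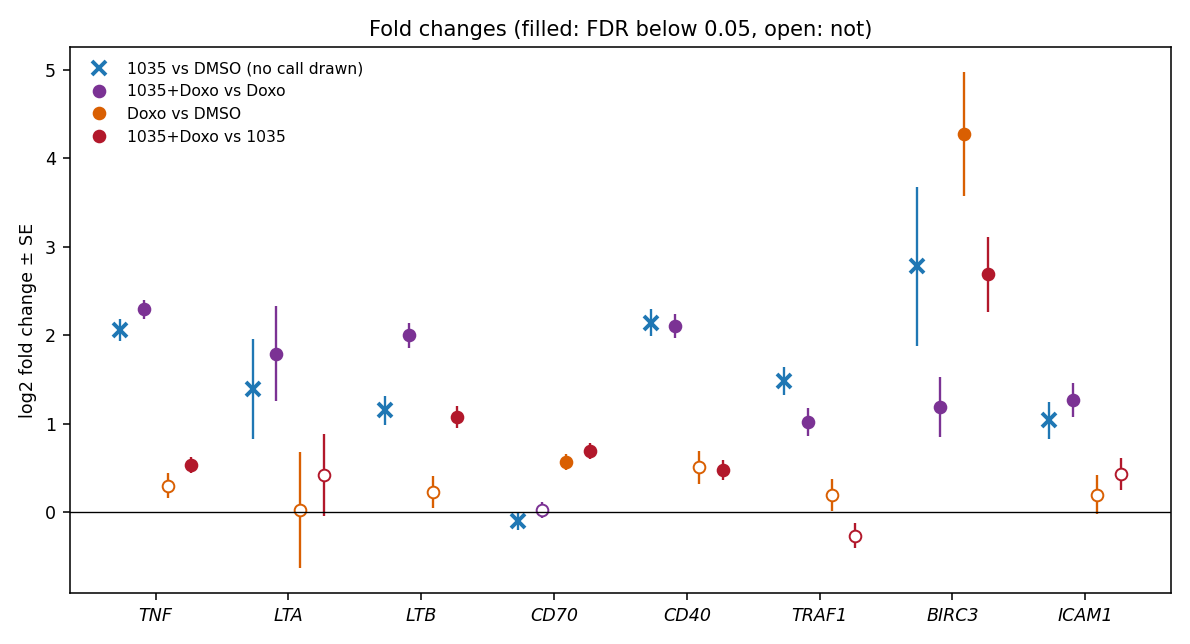
Log2 fold change (vertical axis) of each gene (horizontal axis) in 4 comparisons, with bars of 1 SE. Filled dots passed an FDR of 0.05 and open dots did not; crosses show 1035 against DMSO, for which no call is drawn. CD70 lies near 0 in both comparisons that test 1035 and above it in both that test doxorubicin; fitted values of BIRC3 against DMSO rest on 0 and 2 counts there and depend on the prior count.

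Counted over the group, doxorubicin against DMSO called 2 of 8 genes higher (CD70 and BIRC3) and none lower, where 0.784% of all genes were called higher, 0.545% lower and 1.33% in either direction. After 1035, doxorubicin called 5 of 8 higher (TNF, LTB, CD70, CD40 and BIRC3) and none lower, where 0.349% of all genes were called higher, 0.147% lower and 0.496% in either direction. Without library 2 of the combination, 2 of the 5 calls were left (LTB and CD70). The median log2 fold change of the 8 genes was 0.26 in the first of these comparisons and 0.50 in the second, against -0.01 and 0.00 for all genes. The first shares the DMSO libraries with 1035 against DMSO, the second the 1035 libraries, and the interaction both. The choice of genes can therefore carry over to these results too. That TNF, LTB and CD40 passed only after 1035 does not show a different response, since 0 of 8 genes passed the interaction test itself in edgeR, where 0.0184% of all genes were called (3 genes, all higher). At an unadjusted p under 0.05, 1 of 8 passed it (LTB), as did 786 of all 16320 genes, and DESeq2 called 0 of 8. In the authors' deposited table of doxorubicin against DMSO, the 7 members it holds have an adjusted p of exactly 1, as do 75% of its genes. The authors' deposited table of the combination against 1035 gives exactly 1 to 7 of the 8 and to 60% of its genes, and no gene under a scaled mean count of 413 has a lower value there. TNF, the remaining member, has an adjusted p of 0.0813 there (the authors' DESeq2). By the authors' values, 0 of the 8 are thus below 0.05 in that comparison. DESeq2 run here gave no adjusted p to any member in doxorubicin against DMSO, and its unadjusted p was 1.4e-05 for CD70 and 1.1e-04 for BIRC3.

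**Figure D3:**
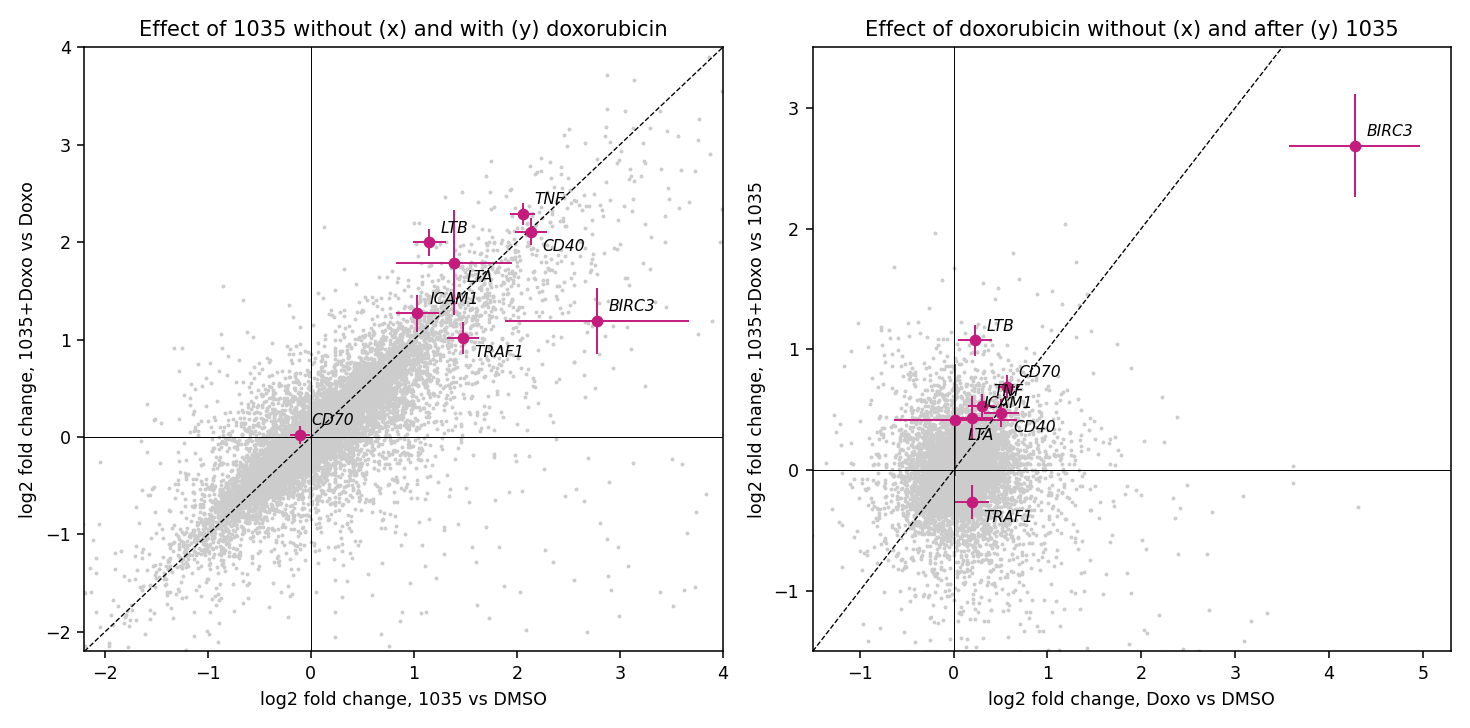
Left, log2 fold change by 1035 without doxorubicin (horizontal) and with it (vertical); right, by doxorubicin without 1035 (horizontal) and after it (vertical). Named points are the 8 genes with bars of 1 SE, grey points all tested genes within the axes, and the dashed line marks equal effects. The 2 comparisons of a panel share no library. LTB lies above the line and BIRC3 below it. The vertical distance from the line is the interaction and is the same in both panels by construction, and neither gene passed that test with all libraries.

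Levels of different genes were compared per gene length, with the FPKM values the authors deposited. In DMSO the order was CD70 at 14.1 ± 0.0339 (mean ± SD, n = 2), TNF at 4.27 ± 0.282, LTB at 2.78 ± 0.369, CD40 at 1.39 ± 0.203, ICAM1 at 0.784 ± 0.157, TRAF1 at 0.622 ± 0.0043, LTA at 0.217 ± 0.00628 and BIRC3 at 0.00857 ± 0.0121 FPKM. No neighbours in this order overlapped. In 1035 TNF (18.6 ± 0.176 FPKM) stood above CD70 (13.7 ± 0.723 FPKM), while LTB overlapped CD40 and TRAF1 overlapped ICAM1. In doxorubicin CD70 was again highest (21.4 ± 0.826 FPKM), and LTA (0.219 ± 0.0483 FPKM) overlapped BIRC3 (0.187 ± 0.00606 FPKM). In the combination TNF reached 27.2 ± 2.96 FPKM and CD70 22.4 ± 1.14 FPKM, and BIRC3, still the lowest, 0.445 ± 0.0758 FPKM.

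The genes whose log2 CPM over the 8 libraries was most like that of each member are given as a description, since the libraries share their 4 treatments. For TNF these were SRC (Pearson r = 0.998), ATG4A (0.996) and RGL1 (0.996), for CD40 OPTN (0.997), DUSP18 (0.996) and BBS12 (0.996), and for TRAF1 C16orf58 (0.997), GINM1 (0.996) and MAPKBP1 (0.996). ICAM1 was most like LYPLA2 (0.993), SMAP2 (0.992) and SNX1 (0.990), and LTA most like ADAL (0.988), IKBKE (0.984) and ERN1 (0.979). For LTB the list was MIR146A (0.994), ZC3H12A (0.990) and ADM (0.989). The row named MIR146A, which is not a measure of the mature miRNA, had means of 14.4, 24.7, 14.4 and 47.2 CPM in DMSO, 1035, doxorubicin and the combination. CD70 was most like DCP1B (0.977), AC096579.7 (0.976) and SESN1 (0.975), and BIRC3 most like DRAXIN (0.980), CDKN1A (0.965) and CCDC136 (0.952). SESN1 and CDKN1A are both known p53 targets, and a part of p53 was not tested. In DMSO, 1035, doxorubicin and the combination, SESN1 had means of 52.1, 51.8, 79.8 and 76.7 CPM. CDKN1A had 189, 232, 281 and 353 CPM.

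With 1035, other genes of the pathway were called in both directions, as were all genes (21.8% higher and 22.0% lower in the combination against doxorubicin). Among other TNF family ligands, 1 of 5 tested was higher in the combination against doxorubicin (TNFSF9, the 4-1BB ligand, 0.76 ± 0.17) and none lower. Among other receptors of the family, 10 of 19 were higher and 3 lower. TNFRSF1A, a receptor of TNF, was at 0.92 ± 0.09, the TRAIL receptor TNFRSF10B at 0.87 ± 0.11 and TNFRSF13B (TACI) at 1.04 ± 0.19. TNFRSF1A stood at 23.8 ± 1.08, 41.9 ± 4.13, 22.3 ± 0.304 and 42.3 ± 0.375 CPM (mean ± SD, n = 2) in DMSO, 1035, doxorubicin and the combination, so that the gene of the TNF receptor and TNF were both higher in libraries with 1035. Among 18 genes of receptor-proximal signalling, 8 were higher and 2 lower, the latter being RIPK1 (-0.68 ± 0.10), a kinase at the TNF receptor, and XIAP (-0.43 ± 0.07). Of 8 genes of NF-kB subunits and IKK kinases, 2 were higher (NFKB2 and REL) and 1 lower, NFKB1 (-0.42 ± 0.06, adjusted p = 2.5e-07, edgeR). NFKB1 stood at 164 ± 5.24, 105 ± 0.810, 167 ± 5.59 and 125 ± 1.53 CPM (mean ± SD, n = 2) in DMSO, 1035, doxorubicin and the combination. The feedback inhibitors of NF-kB went 1 way in the combination against doxorubicin. Of 11, 8 were higher and none lower, with CYLD at 0.85 ± 0.07, TNFAIP3 at 0.64 ± 0.06 and N4BP1 at 0.59 ± 0.07. Of 15 other NF-kB effector genes, 8 were higher and 3 lower, with IER3 at 2.21 ± 0.16, TNFAIP2 at 1.37 ± 0.20, CD83 at 1.30 ± 0.12 and IRF1 at 0.70 ± 0.07. The 3 lower were CFLAR (-0.29 ± 0.07), SOD2 (-0.26 ± 0.06) and IRF4 (-0.17 ± 0.06). The median log2 fold change in this comparison was -0.03 for the other ligands, 0.21 for the receptors and 0.14 for proximal signalling. It was 0.09 for the NF-kB subunits and IKK kinases, 0.58 for the feedback inhibitors and 0.70 for the other effectors. The median of 1.53 for the 8 genes is not set against these, since they were named with higher TNF and CD40 after 1035 in view.

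With doxorubicin, NFKB2 and RELB, the subunits of the alternative arm, rose in both settings, where 0.784% and 0.349% of all genes were called higher. NFKB2 rose by 0.85 ± 0.11 against DMSO and by 0.97 ± 0.10 after 1035, and RELB by 0.77 ± 0.12 and 1.01 ± 0.13. Of 8 genes of NF-kB subunits and IKK kinases, 2 were higher in doxorubicin against DMSO and 3 in the combination against 1035, the further one being NFKB1 (0.26 ± 0.06, adjusted p = 0.0388, edgeR), which no longer passed without any 1 of the 6 libraries of DMSO, 1035 or the combination (adjusted p 0.0823 to 0.410). Of 11 feedback inhibitors, 1 was higher in doxorubicin against DMSO (NFKBIA, 0.39 ± 0.06) and 4 in the combination against 1035, of which NFKBIA (1.07 ± 0.06) and TNFAIP3 (0.74 ± 0.06), which encode IkB alpha and A20, held with each single library left out. NFKBIZ (0.57 ± 0.09) did not pass without library 2 of the combination (adjusted p = 0.0939). ZC3H12A (0.60 ± 0.15) did not pass without any 1 of the 6 libraries of DMSO, 1035 or the combination (adjusted p 0.0518 to 0.759). Of the 19 other receptors, 2 were higher in doxorubicin against DMSO, FAS (1.16 ± 0.22) and TNFRSF10B (0.88 ± 0.13). FAS did not pass without library 1 (adjusted p = 0.0505) or library 2 (0.0578) of DMSO. After 1035, FAS (1.38 ± 0.29) and EDA2R (1.79 ± 0.37) were the 2 receptors called higher. Both calls ended without library 2 of the combination (adjusted p = 0.247 and 0.413) or library 2 of 1035 (0.0821 and 0.170) or library 1 of 1035 (0.0966 and 0.0513), and that of FAS also without library 1 of the combination (0.0832). TNFSF9 was the only other ligand called higher after 1035 (0.91 ± 0.17), with an adjusted p of 0.322 without library 2 of the combination and of 0.101 with DESeq2. TNFSF4, the OX40 ligand, was the 1 ligand of this list called higher in doxorubicin against DMSO (0.49 ± 0.09), a call that ended without library 1 of DMSO (adjusted p = 0.225) or of doxorubicin (0.0535). TRAF3, an adaptor that restrains the alternative arm, was the 1 gene of receptor-proximal signalling called higher after 1035 (0.54 ± 0.10), which ended without library 1 of 1035 (adjusted p = 0.0805) or library 2 of the combination (0.193). CFLAR, an inhibitor of caspase 8 activation, was called higher there at the threshold (0.29 ± 0.07, adjusted p = 0.04997, edgeR) and not without library 1 or 2 of DMSO (0.0949 and 0.0868), library 2 of 1035 (0.628) or library 1 or 2 of the combination (0.0796 and 1.00). CD83, a B-cell activation marker, was the only other effector gene called higher in doxorubicin against DMSO (0.55 ± 0.14), a call that ended without library 2 of DMSO (adjusted p = 0.509) or of doxorubicin (0.155) or without either library of the combination (0.0773 and 0.0810). Its rise after 1035 (0.68 ± 0.11) held with each single library left out.

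**Figure D4:**
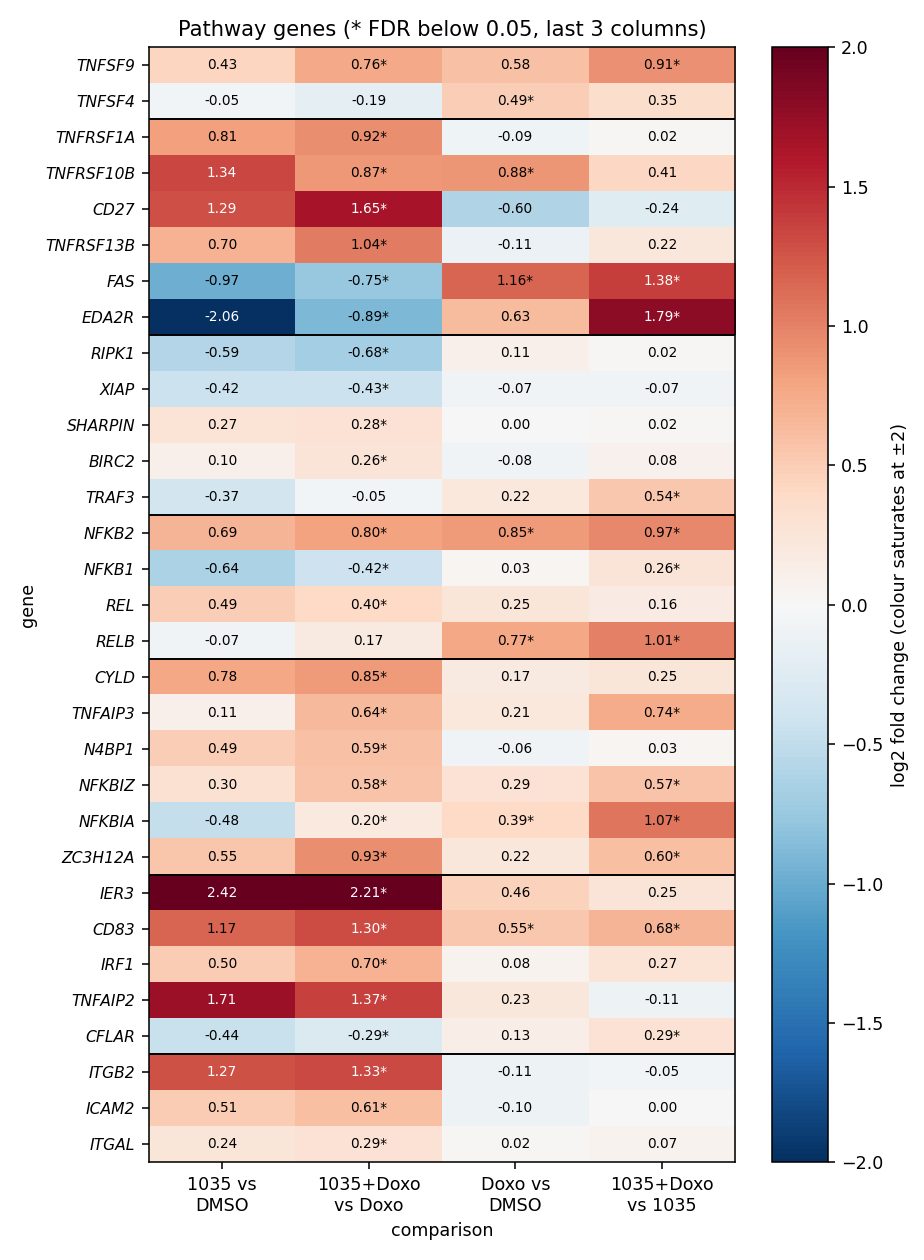
Log2 fold change (numbers and colour) of pathway genes outside the 8 members (rows, with lines between lists) in 4 comparisons (columns). Asterisks in the last 3 columns mark an FDR below 0.05. NFKB2 is positive in all 4 columns, and FAS and EDA2R are negative in both columns for 1035 and positive in both for doxorubicin.

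TNF lies between LTA and LTB on chromosome 6 in the RefSeq gene order, with NFKBIL1 on the far side of LTA and LST1 on the far side of LTB. Of 12 tested genes around this cluster, 4 were higher and 2 lower in the combination against doxorubicin, with a median of 0.09, where 43.8% of all genes were called in either direction. ATP6V1G2 rose by 2.54 ± 0.29, LST1 by 1.74 ± 0.30 and AIF1 by 1.42 ± 0.29, while MICB fell by 0.39 on the log2 scale.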

How the data were processed

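The members and gene lists were chosen with earlier results of these data known. Per the labels' protocols, RNA was depleted of ribosomal RNA, made into stranded libraries and read as single reads of 50 bases. Per the submitters' processing notes, Novoalign 2.08.01, the build hg19 and DESeq2 1.4.5 were used; how reads were assigned to genes, with or without strand and on which gene models, is not stated there, so overlapping and antisense genes are uncertain. The authors deposited raw counts per gene in 4 tables, 1 per comparison. The FPKM deposited by the authors are counts scaled to gene length and to the counted reads of a table, and differed between tables of 1 library by a median of at most 0.987%. The log2 fold changes and adjusted p-values deposited by the authors were used only where the text names their table.

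The 4 tables were merged on gene identifiers, and the 132880 counts present in more than 1 of them were equal. Of 17849 genes, 16608 had counts in all 8 libraries. BIRC3 has no row in 1 table and LTA none in another, but other tables give their counts. filterByExpr of edgeR 4.0.16 (R 4.3.3) removed 288 genes and left 16320, the 8 members among them. LTA passed this filter only through libraries given 1035, and BIRC3 only through libraries given doxorubicin. Their calls, and the counts of members that include them, are therefore not independent of the filter. With no filter, the number of members called was the same in every comparison. TMM-normalised counts of all 8 libraries were fitted with 4 group means by robust quasi-likelihood (4 residual degrees of freedom), two-sided, with Benjamini-Hochberg adjustment over all genes. Other genes added a median of 35.6 prior degrees of freedom, so the p-values rest largely on a spread shared between genes. Standard errors are the size of the log2 fold change over the root of F. Alternatives were DESeq2 1.42.0, its size factors, no filter, only the groups compared, a replicate block, no robust estimation and leaving out each library. Beside members, the genes named or plotted are up to 4 of each list with the smallest p in the combination against doxorubicin, genes of the lists called with doxorubicin or in the interaction, and the 3 genes most like each member among those with a mean of at least 1 CPM (log2 CPM with a prior count of 2). LTBR, TNFRSF1B, SOD2, IRF4, BIRC2 levels and markers were named outside that rule.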

Additional observations from a re-analysis of the deposited data

Results flagged for a closer look

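For 2 genes of the pathway outside the 8 members, the effect of 1035 with doxorubicin differed from that without by a test of the difference itself. The interaction was 0.68 ± 0.09 on the log2 scale for NFKBIA (adjusted p = 4.3e-05, edgeR). NFKBIA stood at 97.3 ± 1.64, 69.7 ± 2.69, 128 ± 5.34 and 147 ± 4.76 CPM (mean ± SD, n = 2) in DMSO, 1035, doxorubicin and the combination, so that 1035 went with a lower level without doxorubicin (-0.48 ± 0.07) and a higher one with it (0.20 ± 0.06), the latter not past the test without library 1 of the combination (adjusted p = 0.0935). The interaction was 0.53 ± 0.08 for TNFAIP3 (adjusted p = 0.00112, edgeR). TNFAIP3 stood at 175 ± 2.99, 188 ± 4.62, 201 ± 1.37 and 314 ± 17.7 CPM (mean ± SD, n = 2). The TNFAIP3 call ended without library 2 of DMSO (adjusted p = 0.0786) or library 2 of the combination (0.113). LTB had the larger fitted interaction (0.85 ± 0.22), but with an adjusted p of 0.569 it did not pass.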

How the results depend on the processing

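Of 540 values of the 8 genes under the alternatives, 509 kept direction and side of the threshold, 20 no longer passed, 1 newly passed and 10 changed sign with no call either way. Those 10 came from leaving out 1 library. Over these fits the log2 value ran from -0.26 to 0.19 for LTA and from -0.000435 to 0.42 for ICAM1 in doxorubicin against DMSO, from -0.15 to 1.26 for LTA in the combination against 1035, from -0.038 to 0.081 for CD70 in the combination against doxorubicin, and in the interaction from -0.18 to 1.23 for LTA and from -0.19 to 0.12 for CD40. Leaving out 1 library gave 33 to 1180 called genes in doxorubicin against DMSO (217 with all; 1180 without doxorubicin library 1), 30 to 143 in the combination against 1035 (81 with all) and 1 to 239 in the interaction (3 with all; 239 without doxorubicin library 1). Among the 8 genes it left 2 to 5 calls in the combination against 1035 and 0 to 1 in the interaction, 5 to 7 in both comparisons of 1035 and 2 in doxorubicin against DMSO. A lone library is assumed to vary like the other groups. With only the groups compared, 134 genes were called in doxorubicin against DMSO and 151 in the combination against 1035; the cause was not tested. In 1035 against DMSO, BIRC3 and LTA did not pass the filter of that fit, and 5 of 8 genes were called. Same-numbered libraries correlated by -0.161 (DMSO and 1035) up to 0.0216 in their deviations from group means, so the numbers were not taken to pair samples. The replicate block called 16 genes in the interaction and changed no count of the 8 genes (7, 7, 2, 5 and 0). A crossed block of DMSO and 1035 on their 4 libraries alone, added after seeing the data, called 8826 genes and 5 of the 8, against 8353 and 5 for those libraries with no block. Depth limits LTA and BIRC3, with at most 19 and 44 counts in a library.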
